A study of Mus musculus with 8 samples.

Results

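The genes described here are 10 members of the circadian clock in colonic epithelial cells, out of 35963 gene symbols in the table. They are Per1, Per2, Per3, Nr1d1, Nr1d2, Ciart and Dbp, called the PER/REV-ERB phase genes below, and Arntl, Clock and Npas2, which encode the activators that drive them. The 10 were chosen by name, with their levels in these same libraries already known to differ between the groups, so their differences between the groups are given as a description and without a test. RNA was sequenced from epithelial cells released with a buffer from the proximal colon of mice aged 4 weeks. In the Ccna2-KO group (4 libraries), the mice had Ccna2 alleles with loxP sites (Ccna2 fl/fl) together with vil-Cre, a Cre recombinase under the villin promoter that acts in intestinal epithelium and leaves other cells of the isolate untargeted. The 4 libraries labelled WT came from Ccna2 fl/fl mice, for which the design names no Cre. Ccna2 encodes cyclin A2, a cell cycle regulator. The labels do not say whether each library came from a separate mouse, so every p-value below measures the spread between these libraries. The sources used here give neither the time of day at collection nor the feeding state.

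The clock is a feedback loop of transcription that runs over the day in most cells, including the intestinal epithelium, where meal times can shift it. BMAL1 (the product of Arntl) pairs with CLOCK or NPAS2, binds E-box sequences and switches on the Per and Cry genes, Nr1d1, Nr1d2, Dbp and Ciart. PER and CRY proteins then block the activators, and the REV-ERB proteins encoded by Nr1d1 and Nr1d2 repress Arntl and Npas2 through ROR elements. The levels of the PER/REV-ERB phase genes and of Arntl and Npas2 therefore peak at opposite times of day in healthy tissue, while Clock itself swings little in many tissues.

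Promoter windows of the members are shown because both arms of the loop are read through short DNA motifs near the start of transcription. RefSeq windows on GRCm38.p6, each holding 250 bases before and 50 bases after an annotated start, were found for 9 of the 10 members. Per2 was not in the set. Both strands were searched for the E-box CACGTG, the D-boxes TTATGNAA and TTACGTAA (bound by DBP and its relatives and by the repressor NFIL3), the ROR elements NTAGGTCA and NTGGGTCA, and the cAMP response element TGACGTCA, where N is any base. Of 32851 promoter windows of all genes, 7.15% held the E-box, 3.38% and 0.119% the D-boxes in that order, 2.59% and 3.98% the ROR elements in that order, and 1.79% the cAMP response element. Among the members, 4 had at least 1 of these motifs in a window, and their sequences follow with the motifs in capitals.
Ciart promoter, chr3:95882179-95882478, minus strand: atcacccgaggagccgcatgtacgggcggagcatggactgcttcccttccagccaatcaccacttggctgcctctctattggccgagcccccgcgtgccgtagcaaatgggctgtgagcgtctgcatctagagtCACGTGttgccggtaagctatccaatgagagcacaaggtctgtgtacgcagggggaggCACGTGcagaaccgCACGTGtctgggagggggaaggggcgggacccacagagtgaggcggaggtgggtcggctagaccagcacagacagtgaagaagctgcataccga
Per1 promoter, chr11:69098699-69098998, plus strand: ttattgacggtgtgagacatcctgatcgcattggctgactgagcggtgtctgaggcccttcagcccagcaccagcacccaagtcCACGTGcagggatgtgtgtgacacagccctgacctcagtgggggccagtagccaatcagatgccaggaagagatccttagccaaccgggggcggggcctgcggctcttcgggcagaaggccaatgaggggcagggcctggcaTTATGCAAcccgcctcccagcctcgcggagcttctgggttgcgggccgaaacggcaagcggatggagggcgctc
Per3 promoter, chr4:151044616-151044915, minus strand: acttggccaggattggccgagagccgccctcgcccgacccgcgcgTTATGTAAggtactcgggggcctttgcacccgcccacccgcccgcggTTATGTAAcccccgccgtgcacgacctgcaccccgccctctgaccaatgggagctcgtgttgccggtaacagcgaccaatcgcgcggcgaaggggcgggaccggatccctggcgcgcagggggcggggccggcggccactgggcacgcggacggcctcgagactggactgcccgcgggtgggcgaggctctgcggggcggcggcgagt
Arntl promoter, chr7:113207261-113207560, plus strand: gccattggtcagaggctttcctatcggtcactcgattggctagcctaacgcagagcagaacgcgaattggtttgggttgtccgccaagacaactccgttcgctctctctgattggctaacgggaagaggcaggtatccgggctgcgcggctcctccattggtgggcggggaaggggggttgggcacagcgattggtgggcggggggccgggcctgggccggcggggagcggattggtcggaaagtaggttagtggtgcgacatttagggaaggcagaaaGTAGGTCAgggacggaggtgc
The Ciart window held 3 E-boxes, beginning 116, 58 and 44 bases before the start. The first of 2 annotated Per1 windows held an E-box beginning 166 bases before the start and the D-box TTATGCAA beginning 24 bases before it. The Per3 window held the D-box TTATGTAA in 2 places, 205 and 158 bases before the start. The second of 2 Arntl windows held the ROR element GTAGGTCA, beginning at base 30 of the transcribed part. No match in the windows of Nr1d1, Nr1d2, Dbp, Clock and Npas2 says only that these letters are absent from these stretches.

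Each library held between 27162083 and 34386731 estimated counts. Values below are counts per 1000000 counts of the library (CPM), with library sizes scaled by the trimmed mean of M values (TMM), and errors are SDs over 4 libraries unless called SE. Ccna2 itself averaged 21.9 ± 5.46 CPM in Ccna2-KO libraries and 27.6 ± 18.7 CPM in WT libraries, a log2 fold change of -0.33 ± 0.41 (SE) that did not pass the test (edgeR quasi-likelihood test with Benjamini-Hochberg adjustment, adjusted p = 0.673). The count covers the whole gene, the sources used here do not name the deleted exons, and every direction below rests on the labels. Epithelial markers were high in all libraries, and Epcam ranged from 1781 to 2030 CPM in Ccna2-KO libraries and from 1777 to 1974 CPM in WT libraries. WT replicate 1 stood apart from the other 7 libraries on the second principal component (score -74.2, 23.8% of the variance). The library numbers in the labels form a low set (595 to 598, with Ccna2-KO replicate 4 and WT replicates 2, 3 and 4) and a high set (621 to 641, with Ccna2-KO replicates 1, 2 and 3 and WT replicate 1). The sources used here do not explain these numbers, and set and genotype overlap in 6 of 8 libraries. In bulk samples such as these, fewer cells of a type and less RNA per cell cannot be told apart.

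The period genes, which encode the repressors PER1, PER2 and PER3, were all lower in Ccna2-KO libraries. Per1 (chromosome 11, 69095108 to 69109965, GRCm38.p6) had 46.9, 39.9, 29.4 and 55.8 CPM in Ccna2-KO replicates 1 to 4, against 67.0, 152, 114 and 95.8 CPM in WT replicates 1 to 4. All 4 Ccna2-KO values lay below the lowest WT value, that of WT replicate 1. Per2 (chromosome 1, 91415977 to 91459351) had 24.2, 20.03, 15.9 and 24.0 CPM in Ccna2-KO replicates 1 to 4, against 29.1, 53.7, 58.9 and 62.0 CPM in WT replicates 1 to 4. The groups again did not overlap, and WT replicate 1 lay closer to the Ccna2-KO libraries than to the other WT libraries. Per3 (chromosome 4, 150997018 to 151044707) had 19.0, 15.6, 10.5 and 6.86 CPM in Ccna2-KO replicates 1 to 4, against 25.8, 34.04, 27.9 and 23.1 CPM in WT replicates 1 to 4. Here the lowest library was Ccna2-KO replicate 4, which was the highest of its group for Per1. The log2 fold changes, Ccna2-KO over WT, were -1.32 ± 0.26 for Per1, -1.28 ± 0.24 for Per2 and -1.09 ± 0.28 for Per3 (SE), so that WT levels were 2.50, 2.42 and 2.13 times the Ccna2-KO levels.

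The REV-ERB receptors were lower by less. Nr1d1 (chromosome 11, 98767932 to 98775377), which encodes REV-ERB alpha, had 205, 207, 200.1 and 264 CPM in Ccna2-KO replicates 1 to 4, against 325, 392, 355 and 345 CPM in WT replicates 1 to 4. The groups did not overlap, and the values within each group were close, the highest being 1.32 times the lowest in Ccna2-KO libraries and 1.21 times in WT libraries. Nr1d2 (chromosome 14, 18204056 to 18239106), which encodes REV-ERB beta, had 85.8, 90.4, 64.1 and 55.5 CPM in Ccna2-KO replicates 1 to 4, against 81.4, 117, 102 and 104 CPM in WT replicates 1 to 4. The groups overlapped, because WT replicate 1 lay below Ccna2-KO replicates 1 and 2. The log2 fold changes were -0.69 ± 0.12 for Nr1d1 and -0.45 ± 0.18 for Nr1d2 (SE). Exons of Nr1d1 share 263 bases, 8.55% of its exonic bases, with Thra on the opposite strand. The sources used here do not say whether strand was kept, and without it reads there cannot be assigned to either gene. Thra had a log2 fold change of -0.19 ± 0.12 (SE; edgeR adjusted p = 0.361).

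Ciart and Dbp, a repressor and an output of the activators, varied the most among libraries. Ciart (chromosome 3, 95878500 to 95882257) encodes a protein that binds BMAL1 and represses its activity. It had 3.47, 4.53, 3.25 and 1.84 CPM in Ccna2-KO replicates 1 to 4, against 6.59, 16.5, 10.5 and 5.27 CPM in WT replicates 1 to 4. The groups did not overlap, but Ciart was the scarcest member, with 47 counts in Ccna2-KO replicate 4. Dbp (chromosome 7, 45705100 to 45710203) encodes a transcription factor that acts on D-boxes and carries the rhythm to other genes. It had 21.8, 19.0, 14.9 and 4.82 CPM in Ccna2-KO replicates 1 to 4, against 58.2, 58.6, 32.5 and 20.1 CPM in WT replicates 1 to 4. WT replicate 4 lay just below Ccna2-KO replicate 1, so the groups overlapped. Dbp spread most among the members in Ccna2-KO libraries, the highest being 4.52 times the lowest. In WT libraries this ratio was 2.92 for Dbp, and Ciart had the widest spread, at 3.13 times. The log2 fold changes were -1.56 ± 0.39 for Ciart and -1.48 ± 0.46 for Dbp (SE). Dbp shares 539 exonic bases, 18.0% of its own, with Sphk2 on the opposite strand. Sphk2 had a log2 fold change of -0.37 ± 0.15 (SE; edgeR adjusted p = 0.157).

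The genes of the activators lay the other way or did not separate. Npas2 (chromosome 1, 39193702 to 39363240) had 34.6, 33.3, 41.5 and 46.6 CPM in Ccna2-KO replicates 1 to 4, against 19.2, 22.4, 31.3 and 32.8 CPM in WT replicates 1 to 4. Every Ccna2-KO library lay above every WT library, by a narrow margin of 33.3 against 32.8 CPM. Arntl (chromosome 7, 113178471 to 113314126) had 41.1, 35.0, 38.6 and 78.7 CPM in Ccna2-KO replicates 1 to 4, against 24.0, 28.5, 41.2 and 45.6 CPM in WT replicates 1 to 4. Ccna2-KO replicate 4 was far above all other libraries, and the remaining values of the groups overlapped. Clock (chromosome 5, 76209868 to 76305603) had 97.8, 92.4, 76.3 and 112 CPM in Ccna2-KO replicates 1 to 4, against 62.5, 99.8, 107 and 108 CPM in WT replicates 1 to 4. Its group means were 94.7 ± 14.8 CPM in Ccna2-KO libraries and 94.3 ± 21.5 CPM in WT libraries. The log2 fold changes were 0.56 ± 0.19 for Npas2, 0.47 ± 0.29 for Arntl and 0.01 ± 0.19 for Clock (SE).

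**Figure D1:**
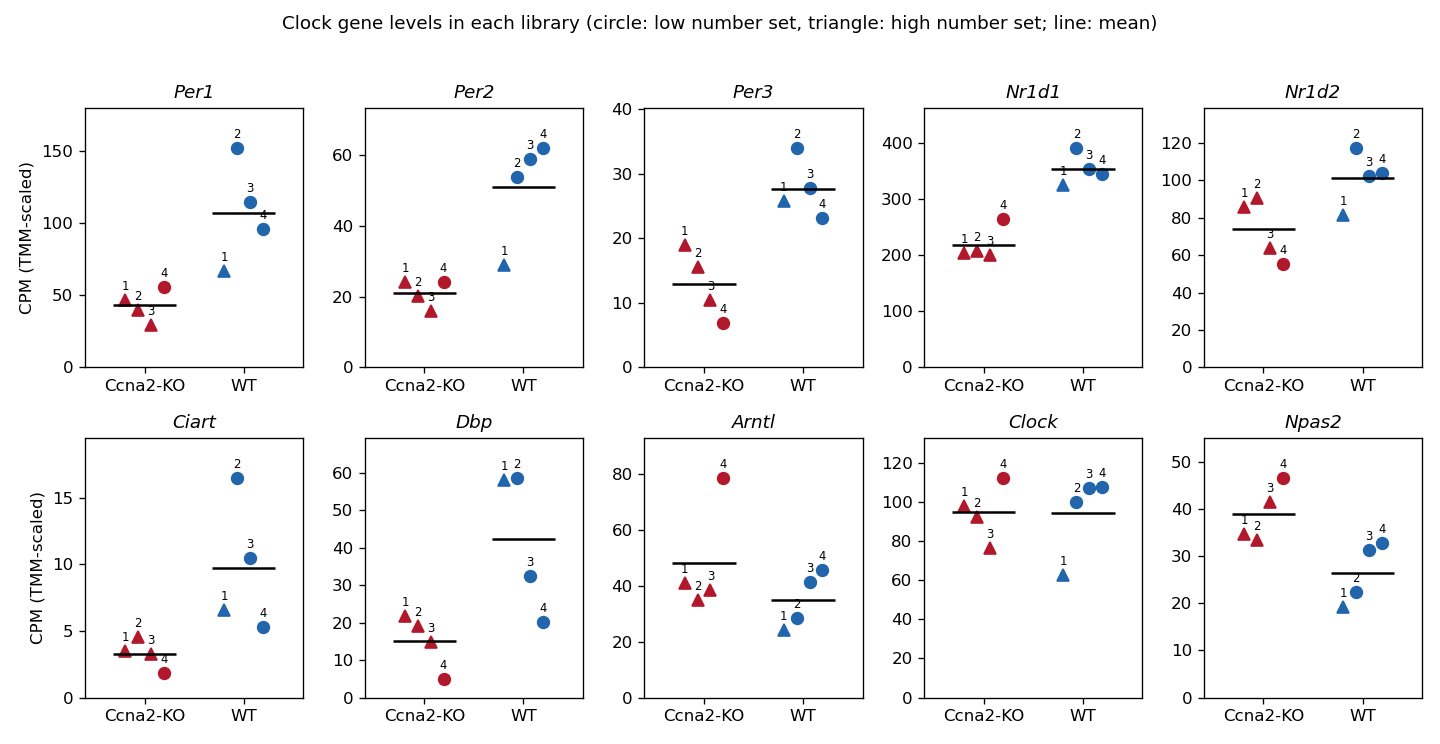
Level of each member in CPM (vertical axes, from 0) in 4 Ccna2-KO libraries (red) and 4 WT libraries (blue), numbered by replicate, with the mean of each group as a line. Per1, Per2, Per3, Nr1d1 and Ciart have all Ccna2-KO points below all WT points, and Npas2 has all of them above.

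All 10 members passed the filter on low counts. Counting libraries alone, 5 of the 7 PER/REV-ERB phase genes had every Ccna2-KO value below every WT value, and the other 2 overlapped. Of 15893 genes tested, 9.60% showed this separation downward and 9.41% upward. Of Arntl, Clock and Npas2, 1 of 3 was separated upward. The median log2 fold change was -1.28 over the phase genes and 0.47 over the 3 activator genes, against -0.01 over all genes tested. Since the members were chosen on this contrast, these counts describe them and carry no further weight.

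The members were also compared within the number sets. A gene separated over all 8 libraries is also separated within each set, so counts within the sets cannot be lower. In the low set, Ccna2-KO replicate 4 stands against WT replicates 2, 3 and 4, and in the high set Ccna2-KO replicates 1, 2 and 3 stand against WT replicate 1. In each set, all Ccna2-KO values lay below all WT values for 6 phase genes, and only Nr1d2 among the 7 did not meet this. In each set, all Ccna2-KO values lay above all WT values for Arntl, Clock and Npas2. Of all genes tested, 19.6% met the downward and 19.4% the upward condition, against 9.60% and 9.41% over all 8 libraries. For Clock the lone library of the high set, WT replicate 1 at 62.5 CPM, and Ccna2-KO replicate 4 at 112 CPM set this order, while the groups as a whole had nearly equal means. With a term for the number set in the fit, the log2 fold changes were 0.30 ± 0.13 for Clock, 0.85 ± 0.16 for Arntl and 0.81 ± 0.16 for Npas2 (SE). With the same term Dbp had -2.24 ± 0.46, Per3 -1.38 ± 0.34, Per1 -0.95 ± 0.21 and Per2 -0.91 ± 0.20 (SE). The set term rests on WT replicate 1 and Ccna2-KO replicate 4, so effects of these libraries and of the set cannot be told apart.

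Both arms were also measured without each of these libraries. Without Ccna2-KO replicate 4 the log2 fold change of Arntl was 0.14, that of Npas2 0.47 and that of Clock -0.08. Without WT replicate 1 the values were 0.33 for Arntl, 0.44 for Npas2 and -0.15 for Clock. The phase genes stayed between -1.47 (Per1) and -0.34 (Nr1d2) without Ccna2-KO replicate 4, and between -1.70 (Ciart) and -0.54 (Nr1d2) without WT replicate 1. Dbp had -1.19 without Ccna2-KO replicate 4 and -1.28 without WT replicate 1.

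The mean of the phase genes was set against the mean of the activator genes in every library. This phase value is the mean log2 CPM of the 7 phase genes minus that of Arntl, Clock and Npas2, so a common scaling of a library drops out of it. It was -0.73, -0.68, -1.13 and -1.90 in Ccna2-KO replicates 1 to 4, against 0.62, 0.89, 0.18 and -0.20 in WT replicates 1 to 4. All Ccna2-KO libraries lay below all WT libraries, and the gap between Ccna2-KO replicate 2 and WT replicate 4 was narrower than the range within either group. The means were -1.11 ± 0.56 in Ccna2-KO libraries and 0.37 ± 0.48 in WT libraries. Leaving out single libraries, the difference between the mean log2 fold changes of the arms ranged from -1.65 to -1.23, around -1.47 with all 8.

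**Figure D2:**
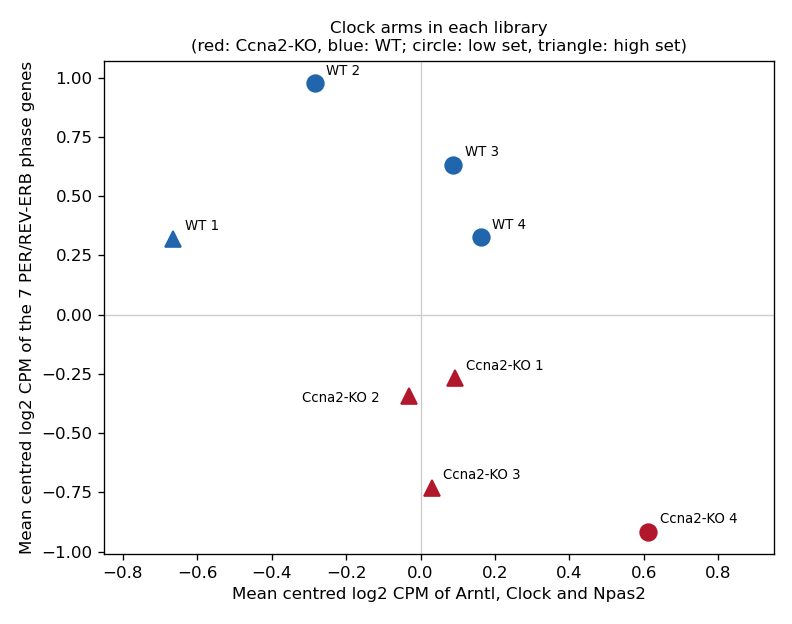
Mean centred log2 CPM of the 7 phase genes (vertical axis) against that of Arntl, Clock and Npas2 (horizontal axis), each gene centred on its mean over the 8 libraries, with 1 point per library. The Ccna2-KO points lie at -0.27 or below on the vertical axis and the WT points at 0.32 or above, with Ccna2-KO replicate 4 at the lower right and WT replicates 1 and 2 at the upper left.

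Ratios of single genes within a library showed the same order of libraries in part. Dbp divided by Arntl was 0.53, 0.54, 0.39 and 0.061 in Ccna2-KO replicates 1 to 4, against 2.42, 2.06, 0.79 and 0.44 in WT replicates 1 to 4. WT replicate 4 fell within the range of the Ccna2-KO libraries on this ratio. Per2 divided by Npas2 was 0.70, 0.60, 0.38 and 0.52 in Ccna2-KO replicates 1 to 4, against 1.52, 2.40, 1.88 and 1.89 in WT replicates 1 to 4, with no overlap. Nr1d1 divided by Arntl was 4.98, 5.93, 5.18 and 3.36 in Ccna2-KO replicates 1 to 4, against 13.5, 13.8, 8.60 and 7.58 in WT replicates 1 to 4, again with no overlap. Within the phase genes, Per1 divided by Per2 ranged from 1.86 to 2.32 in Ccna2-KO libraries and from 1.54 to 2.84 in WT libraries. Nr1d1 divided by Nr1d2 ranged from 2.29 to 4.76 in Ccna2-KO libraries and from 3.325 to 3.99 in WT libraries. The groups overlapped on both ratios.

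Libraries of the same group also differed from each other, but only in part along the same lines. Ccna2-KO replicate 4 had the lowest value of its group for 4 phase genes (Per3, Nr1d2, Ciart and Dbp) and the highest for Arntl, Clock and Npas2, but also the highest for Per1 and Nr1d1. Among WT libraries, replicate 2 had the highest value for 6 of the 7 phase genes, all but Per2. WT replicate 4 had the highest value of Arntl, Clock and Npas2 and the lowest of Per3, Ciart and Dbp. WT replicate 1 had the lowest value of Arntl, Clock and Npas2 and also the lowest of Per1, Per2, Nr1d1 and Nr1d2, so both arms were low in it.

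Levels between members can be compared per kilobase of transcript, using the GENCODE length of a matched transcript. On this scale Nr1d1 was the most abundant, at 80.5 ± 11.1 CPM per kilobase in Ccna2-KO libraries and 130.2 ± 10.3 in WT libraries. In WT libraries Dbp (23.1 ± 10.5), Per1 (23.0 ± 7.66), Nr1d2 (21.7 ± 3.20) and Clock (17.1 ± 3.90) followed, with overlapping ranges of mean ± SD. Arntl (11.98 ± 3.52), Per2 (8.73 ± 2.57), Ciart (6.94 ± 3.60), Npas2 (6.23 ± 1.58) and Per3 (4.62 ± 0.78) came next. Among these, the ranges of mean ± SD overlapped between neighbours. In Ccna2-KO libraries Clock (17.2 ± 2.69), Arntl (16.6 ± 7.01) and Nr1d2 (15.9 ± 3.60) came after Nr1d1, with Per1 (9.21 ± 2.39), Npas2 (9.21 ± 1.46) and Dbp (8.24 ± 4.05) below them. Lowest there were Per2 (3.61 ± 0.68), Ciart (2.34 ± 0.79) and Per3 (2.16 ± 0.90). These ranks rest on 1 length per gene. For Npas2 that length was not from its most abundant transcript, which held 97.0% of its counts in Ccna2-KO and 90.3% in WT libraries. For Per1, Per3, Arntl and Clock the most abundant transcript held only 43.3%, 37.7%, 47.6% and 26.8% of counts in WT libraries on average.

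The division of each gene's counts among its transcripts was tested. Each share is relative to the gene total, so a change in that total alone does not move it. For 8 members with more than 1 transcript, the share on the most abundant transcript was compared by an exact two-sided permutation test, where 0.0286 is the smallest p that 4 against 4 libraries can give. At that p, at least 5 of the 8 genes would have to separate fully for any to pass the adjustment, so the adjusted test had little reach. No share passed, with 0 of 8 below 0.05 after Benjamini-Hochberg adjustment and 0 of 8 before it. The lowest exact p was 0.0857 (adjusted p = 0.343), shared by Per3 and Npas2. For Per3 the share was 23.1% ± 10.6 in Ccna2-KO libraries and 37.7% ± 8.63 in WT libraries, among 11 transcripts. For Npas2 it was 97.0% ± 3.48 in Ccna2-KO libraries and 90.3% ± 4.24 in WT libraries, among 2 transcripts. For Clock, with 10 transcripts, it was 8.20% in WT replicate 1 and between 24.1% and 48.7% in the other libraries. Shares among overlapping transcripts are estimates of the counting tool, and Nr1d1 and Nr1d2 have 1 transcript each.

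Other genes of the loop, which were not among the chosen members, were tested in the same fit over all 15893 genes. Of 23 listed regulators 20 were abundant enough to test, and 1 rose, 1 fell and 18 did not pass the adjusted threshold of 0.05, against 6.40% of all genes higher and 5.71% lower. Cry2, a partner of the PER repressors, had 38.3, 34.6, 34.3 and 36.9 CPM in Ccna2-KO replicates 1 to 4, against 42.7, 62.8, 56.9 and 55.9 CPM in WT replicates 1 to 4. All Ccna2-KO values lay below all WT values. Cry2 fell by 0.60 on the log2 scale (SE 0.12; edgeR adjusted p = 0.0149), a call that ended without Ccna2-KO replicate 2 or 3 (adjusted p up to 0.0546). Arntl2, a paralog of Arntl, had 3.13, 2.97, 3.78 and 1.88 CPM in Ccna2-KO replicates 1 to 4, against 1.08, 1.04, 1.14 and 0.91 CPM in WT replicates 1 to 4. It rose by 1.497 ± 0.25 on the log2 scale (SE; edgeR adjusted p = 0.00630) and passed without any 1 library (adjusted p up to 0.0242). The median log2 fold change of the 20 genes was -0.11, against -0.01 over all genes tested.

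The rest of the loop did not pass in the fit with genotype only, with values on either side of 0. Tef, a D-box factor related to Dbp, had 49.4, 49.9, 36.7 and 19.6 CPM in Ccna2-KO replicates 1 to 4, against 64.6, 98.1, 68.9 and 53.7 CPM in WT replicates 1 to 4, with no overlap. Its log2 fold change came to -0.87 ± 0.29 (SE; edgeR adjusted p = 0.0841), and its lowest library was Ccna2-KO replicate 4, as for Dbp. Tef passed as lower with DESeq2 (adjusted p = 0.0267) and with replicate number as a block (edgeR adjusted p = 0.0313). It passed in 0 of the 8 fits that left out 1 library. Nfil3, the D-box repressor, had 20.3, 18.6, 20.9 and 45.9 CPM in Ccna2-KO replicates 1 to 4, against 23.6, 30.7, 27.5 and 44.0 CPM in WT replicates 1 to 4 (edgeR adjusted p = 0.666). Ccna2-KO replicate 4 and WT replicate 4 were its 2 highest libraries, and these were also the 2 with the most Arntl and the 2 with the least Dbp of their groups. Cry1, the other cryptochrome, had 23.5, 27.04, 21.0 and 46.5 CPM in Ccna2-KO replicates 1 to 4, against 15.1, 31.1, 32.5 and 38.1 CPM in WT replicates 1 to 4. Its log2 fold change came to 0.01 ± 0.32 (SE; edgeR adjusted p = 0.987), and 0.56 with the number set term (edgeR adjusted p = 0.0178), with which 18.2% of all genes passed.

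Rora, a receptor that activates through ROR elements, averaged 0.94 ± 0.14 CPM in Ccna2-KO libraries and 1.92 ± 0.76 CPM in WT libraries (log2 fold change -1.02 ± 0.33 SE, edgeR adjusted p = 0.0813). Rorb was too scarce to test, as were Hlf and Bhlhe41. Bhlhe40, an E-box repressor, averaged 250.4 ± 41.7 CPM in Ccna2-KO libraries and 385 ± 103 CPM in WT libraries (-0.62 ± 0.21, edgeR adjusted p = 0.0830). Without WT replicate 1, Rora, Bhlhe40, Timeless and Tipin passed as well, with edgeR adjusted p between 0.00329 (Rora) and 0.0170 (Timeless). In that fit 4627 of 16247 genes passed, against 1924 of 15893 with all 8 libraries. Timeless and Tipin, which act together at replication forks, had log2 fold changes of 0.41 ± 0.36 and 0.97 ± 0.42 (SE; edgeR adjusted p = 0.531 and 0.180), and in WT replicate 1 both lay above all other WT libraries, at 12.1 and 10.6 CPM.

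Genes that set the stability and activity of the clock proteins did not pass in the fit with genotype only. The kinases Csnk1d (0.06 ± 0.10), Csnk1e (-0.10 ± 0.14), Gsk3b (0.03 ± 0.16) and Csnk2a1 (0.05 ± 0.10) had log2 fold changes near 0, with edgeR adjusted p between 0.704 and 0.937. The ubiquitin ligase genes Fbxl21, Btrc and Fbxw11 had -0.33, -0.33 and 0.05. With the number set term Btrc passed as lower (-0.45, edgeR adjusted p = 0.0214), as 18.2% of all genes passed in either direction. Sirt1, a deacetylase, had -0.19, and Nono, an RNA-binding partner of PER, had 0.20. Of 15 cofactors of transcription tied to the loop, 1 rose and 14 did not pass, against 6.40% of all genes higher and 5.71% lower. The cofactor that rose was Hdac3, the deacetylase recruited by REV-ERB with the corepressor NCOR1, at 0.35 ± 0.10 (SE; edgeR adjusted p = 0.0467). The call held only without WT replicate 1 or Ccna2-KO replicate 4 when single libraries were left out (adjusted p up to 0.136). Ncor1 had a log2 fold change of -0.002 ± 0.18 (SE).

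**Figure D3:**
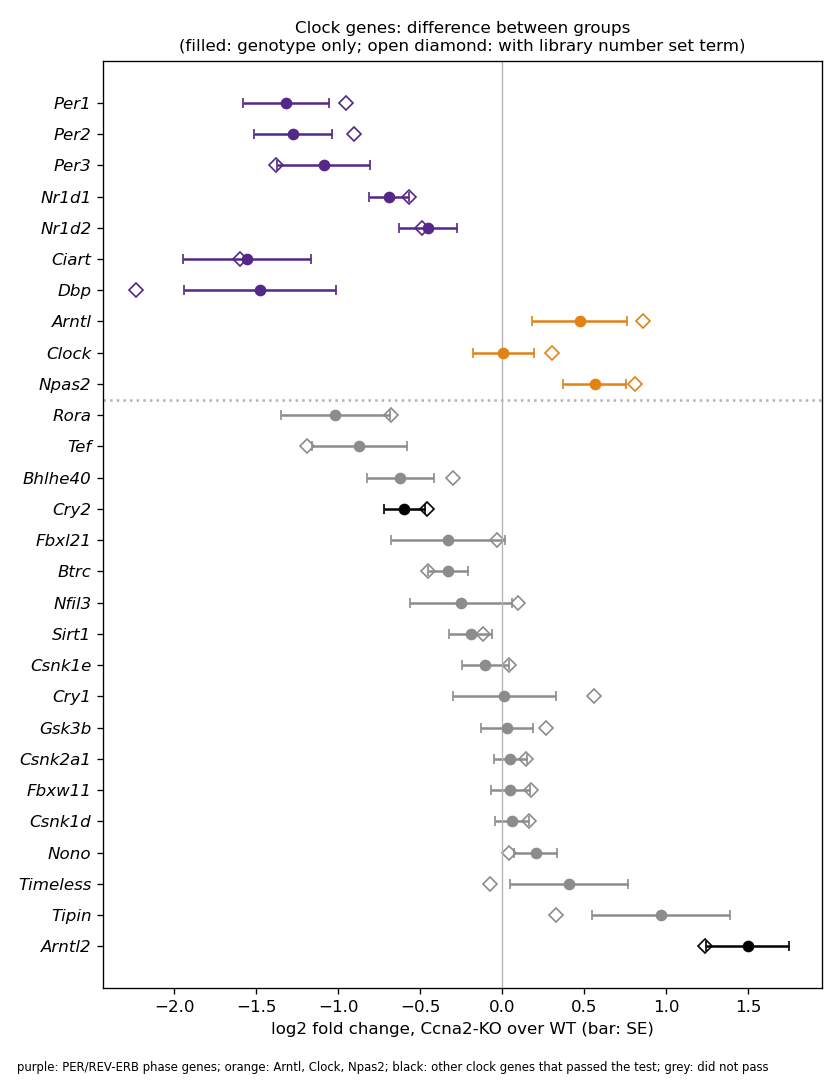
Log2 fold change, Ccna2-KO over WT, for the 10 members (top) and 18 of the 20 other clock genes tested (below the dotted line), with SE bars for the fit with genotype only and open diamonds for the fit with the number set term. The 7 phase genes lie left of 0 in both fits, Arntl and Npas2 right of it, and among the others Cry2 and Arntl2 (black) passed the test.

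**Figure D4:**
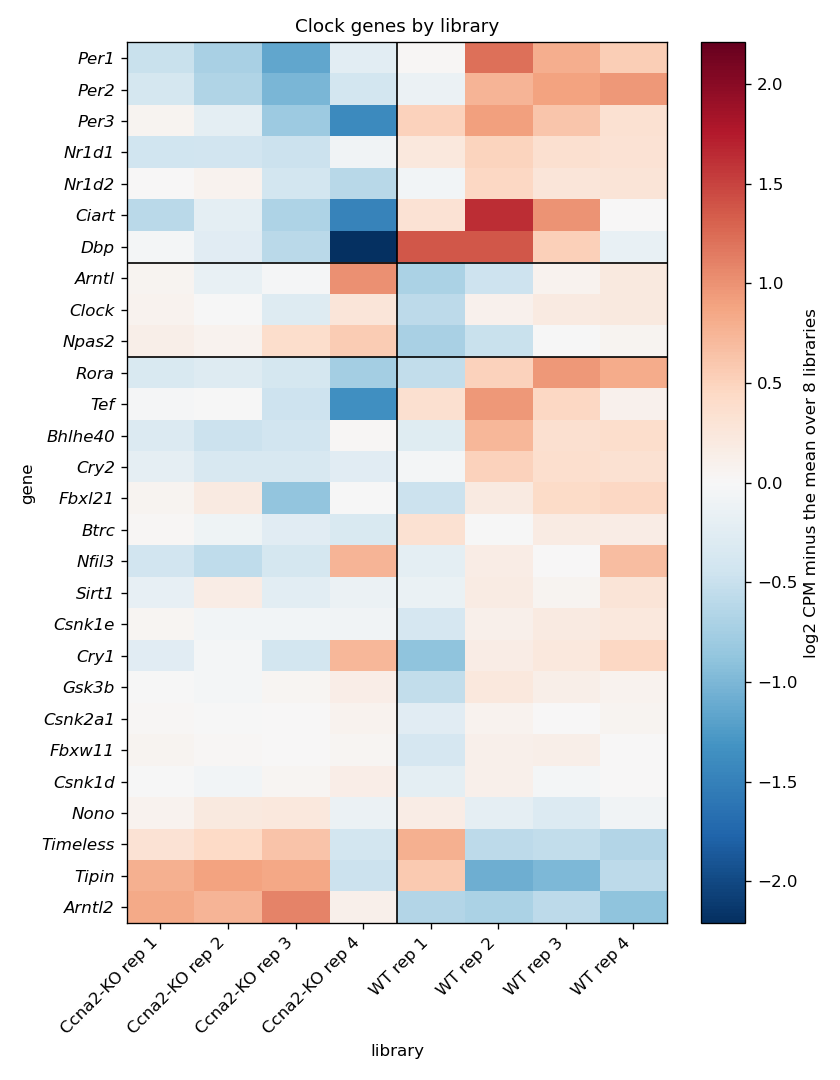
Log2 CPM minus the mean over 8 libraries (colour) for the 10 members and 18 of the 20 other clock genes tested (rows) in 4 Ccna2-KO and 4 WT libraries (columns). Ccna2-KO replicate 4 has the lowest Dbp of all, at -2.21, and the lowest Tef, while Nfil3 and Cry1 are high in Ccna2-KO replicate 4 and WT replicate 4.

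Clock outputs, genes that carry the rhythm to other processes, were called in 1 direction in the fit with genotype only and in both directions with the number set term. The list held 32 symbols for clock outputs, of which 31 were in the table and 29 were tested. Of these 29, 0 rose, 5 fell and 24 did not pass, with a median log2 fold change of -0.13. In that fit 6.40% of all genes were called higher and 5.71% lower, and with the number set term 18.2% passed in either direction. With the number set term 3 passed as higher (Lonrf3, Tfrc and Cdkn1a, edgeR adjusted p = 0.0164, 0.0273 and 0.0354) and 4 as lower (Wee1, Herpud1, Cdkn1b and Dtx4), and Usp2 and Slc15a1 did not pass (adjusted p = 0.102 and 0.0549). Usp2, a deubiquitinase that cycles in many tissues, had 23.1, 16.3, 23.4 and 24.1 CPM in Ccna2-KO replicates 1 to 4, against 27.8, 71.1, 54.9 and 34.6 CPM in WT replicates 1 to 4. It fell by 1.12 on the log2 scale (SE 0.28; edgeR adjusted p = 0.0316), but passed only without WT replicate 1 or 4 when single libraries were left out (adjusted p up to 0.0947). Wee1, a kinase that restrains entry into mitosis and has E-boxes in its promoter, had 12.2, 11.2, 12.6 and 9.06 CPM in Ccna2-KO replicates 1 to 4, against 17.0, 17.1, 16.0 and 20.8 CPM in WT replicates 1 to 4. It fell by 0.65 (SE 0.14; edgeR adjusted p = 0.0190), and the call ended without Ccna2-KO replicate 2 or WT replicate 4 (adjusted p up to 0.0603). Cdkn1b, which encodes the inhibitor p27, fell by 0.67 (SE 0.12; edgeR adjusted p = 0.00813) and passed without any 1 library. Herpud1, of the endoplasmic reticulum stress response, fell by 0.69 (SE 0.17; edgeR adjusted p = 0.0299) and passed without 2 of the 8 libraries. Slc15a1, the intestinal peptide transporter, fell by 1.05 (SE 0.29; edgeR adjusted p = 0.0459) and passed without 1 of the 8. Wee1 and Cdkn1b also act in the cell cycle, whose marker Mki67 averaged 283 ± 43.1 CPM in Ccna2-KO libraries and 96.4 ± 26.5 CPM in WT libraries (edgeR adjusted p = 0.00182), and its part in these changes was not tested. When single libraries were left out, the number of outputs called ranged from 1 (without Ccna2-KO replicate 2) to 8 (without WT replicate 1, 1 higher and 7 lower). Over all genes tested in those fits, 1031 of 16029 and 4627 of 16247 passed, in that order. Among those that did not pass, the log2 fold change was -0.62 for Tsc22d3, -0.64 for Pdk4, 0.17 for Nampt and 0.51 for Lonrf3.

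Signals that can move Per1 directly were listed as well. Of 14 genes that respond to glucocorticoids or handle them, apart from Per1, 1 rose, 1 fell and 12 did not pass. Of all genes tested, 6.40% were called higher and 5.71% lower. Fkbp5, a standard target of the glucocorticoid receptor, had a log2 fold change of -0.15 ± 0.21 (SE; edgeR adjusted p = 0.715), and Klf9 had -0.43 ± 0.18 (edgeR adjusted p = 0.160). Hsd11b2, which inactivates glucocorticoids, fell by 0.76 (SE 0.18; edgeR adjusted p = 0.0249), a call that ended without Ccna2-KO replicate 1, 2 or 3. Cyp11a1, the first enzyme of steroid synthesis, rose by 1.48 ± 0.34 (edgeR adjusted p = 0.0226) at levels of at most 0.48 CPM in any library. It passed without 2 of the 8 libraries and did not pass with the number set term (adjusted p = 0.0526). The number called on this list was 0 without Ccna2-KO replicate 1, 2 or 3 and 7 without WT replicate 1. Over all genes, 1116 of 16221, 1031 of 16029 and 972 of 16055 passed without these Ccna2-KO libraries, in that order. Without WT replicate 1 it was 4627 of 16247.

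Immediate-early genes respond within minutes to growth signals and to handling of cells. Of 19 tested, 8 fell, 0 rose and 11 did not pass, with a median log2 fold change of -0.59. Over all genes tested, 5.71% were called lower and 6.40% higher. Nr4a1, a nuclear receptor, had 121, 98.2, 92.8 and 112 CPM in Ccna2-KO replicates 1 to 4, against 337, 248, 272 and 357 CPM in WT replicates 1 to 4, and fell by 1.52 (SE 0.15; edgeR adjusted p = 0.000548). Fosb fell by 1.09 (SE 0.24; edgeR adjusted p = 0.0191). Egr3 fell by 1.4999 (SE 0.29; edgeR adjusted p = 0.0107), and Ier2 fell by 1.002 (SE 0.21; edgeR adjusted p = 0.0166). Fos, Jun, Egr1 and Atf3 also fell, by 0.69, 0.79, 0.81 and 0.76, with Egr1 not passing with the number set term (edgeR adjusted p = 0.0613). Among those that did not pass, Myc, Ier3 and Dusp1 had log2 fold changes above 0, at 0.94 ± 0.32, 0.20 ± 0.23 and 0.15 ± 0.12 (SE; edgeR adjusted p = 0.0911, 0.651 and 0.493). Nr4a1 and Egr3 passed without any 1 library, and Fos, Jun and Egr1 each passed without 2 of the 8. When single libraries were left out, between 2 genes (without Ccna2-KO replicate 1) and 13 genes (without WT replicate 1, 1 higher and 12 lower) of this list were called. In those fits 1116 of 16221 and 4627 of 16247 genes passed, in that order. Per1 is itself induced by such signals, and the part of these genes in its level was not tested.

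T cell markers also differed between the groups. Of 11 tested T cell genes 11 fell, and their summed level ranged from 12.5 to 24.8 CPM in Ccna2-KO libraries and from 39.8 to 175 CPM in WT libraries. For this and the lists below, the shares over all genes tested were 5.71% lower and 6.40% higher. Ptprc, the common leukocyte antigen, averaged 4.13 ± 1.48 CPM in Ccna2-KO libraries and 25.4 ± 15.2 CPM in WT libraries (edgeR adjusted p = 0.0114). Among WT libraries the summed T cell genes were highest in replicate 2, then 3, 4 and 1. The mean of the phase genes was highest in replicate 2, then 3, with replicates 4 and 1 nearly equal (5.564 and 5.559 log2 CPM). The phase value gave another order, at 0.89, 0.62, 0.18 and -0.20 in WT replicates 2, 1, 3 and 4. Among Ccna2-KO libraries the orders by T cell genes and by phase mean differed, since replicate 4 had the most T cell RNA and the lowest phase mean. The summed myeloid genes ranged from 23.8 to 31.8 CPM in Ccna2-KO libraries and from 40.5 to 70.05 CPM in WT libraries, with 1 of 8 genes higher (Cd68) and 1 lower (Ptprc). Without Ptprc, which other leukocytes share, the myeloid sums overlapped, at 20.4 to 28.0 CPM in Ccna2-KO libraries and 21.7 to 36.3 CPM in WT libraries. Stromal and muscle genes summed to 12.6 to 33.4 CPM in Ccna2-KO libraries and 9.54 to 18.0 CPM in WT libraries, with 1 of 7 tested genes higher (Des) and 1 lower (Pecam1), and B cell genes to at most 2.21 CPM in any library. Of the enteric neuron and glia markers, Sox10 was at 0 in all libraries. The epithelial list summed to 18517 to 24941 CPM in Ccna2-KO libraries and 18422 to 21311 CPM in WT libraries, with 0 of 8 genes called (edgeR; 1 of 8 at an unadjusted p under 0.05). Red cell genes summed to 286, 172, 1362 and 1194 CPM in Ccna2-KO replicates 1 to 4. In WT replicates 1 to 4 the sums were 172, 176, 308 and 267 CPM. In both groups replicates 3 and 4 had the higher sums and the lower phase values. With edgeR 0 of 5 red cell genes were called, and 5 of 5 had an unadjusted p under 0.05. The part of these cells in the clock genes' levels was not tested.

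The genes whose levels ran most like the clock arms across the 8 libraries were picked from 11837 others by the mean absolute difference in centred log2 CPM. Closest to the mean of the 7 phase genes were Abcg1 (0.087), Limd2 (0.095), Rab37 (0.13), Cyp4v3 (0.14) and Arrb2 (0.14), against a median of 0.58 over the genes compared. Abcg1, a sterol transporter, had 2.16, 1.74, 1.44 and 1.33 CPM in Ccna2-KO replicates 1 to 4, against 3.28, 4.35, 4.18 and 3.15 CPM in WT replicates 1 to 4. Of the members, Per3 lay 0.16 from that mean and Dbp 0.47. Closest to the mean of Arntl and Npas2 were Lama3 (0.097), Lonrf3 (0.12), Dusp4 (0.12), Plcd3 (0.12) and St5 (0.14), against a median of 0.39. Lonrf3, which was among the listed clock outputs, had 15.5, 16.2, 15.7 and 21.3 CPM in Ccna2-KO replicates 1 to 4, against 9.97, 9.46, 13.6 and 15.2 CPM in WT replicates 1 to 4, with no overlap.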

How the data were processed

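RNA-seq libraries of colonic epithelial cells were analysed, 4 labelled Ccna2-KO and 4 labelled WT, grouped and numbered by their titles. The authors deposited an estimated count for each RefSeq transcript. The submitters' processing notes name kallisto, with no version in the sources used here, and GRCm38 (mm10). Kallisto divides reads that fit several transcripts between them. Of 107193 transcripts, 687 without a symbol (3.19% to 5.51% of counts) were left out. Counts were summed per symbol and rounded, giving 25960180 to 33028486 per library.

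Genes were tested with edgeR 4.0.16 in R 4.3.3 (default filter on low counts, TMM, robust dispersion, quasi-likelihood F test, Benjamini-Hochberg adjustment over 15893 genes, threshold 0.05), with no covariate, checked on simulated data. Log2 CPM used a prior count of 2. The alternatives were upper quartile and RLE scaling, a filter of 1 CPM or none, DESeq2 1.42.0, limma 3.58.1 voom, non-robust dispersion, replicate number as a block, a number set term and leaving out each library. The members and gene lists were chosen with earlier results of these data known. Named genes were all members, all listed loop regulators, the passing genes and at most 4 others of each further list, and the 5 most alike to each arm with a mean log2 CPM of at least 1. Some listed genes are not reported here by name. Coordinates and promoters are from RefSeq on GRCm38.p6 and lengths and exon overlaps from GENCODE on GRCm38.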

Additional observations from a re-analysis of the deposited data

Results flagged for a closer look

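Among the 10 members and the phase value, the 4 libraries of each group were examined for a library far from the rest (22 groups), and 2 stood out past Dixon's critical value. Chance alone gives about 1 in 20 such groups. Nr1d1 in Ccna2-KO replicate 4, at 264 CPM, lay above the other Ccna2-KO libraries, with a gap of 0.872 of the group's range on the log2 scale. Clock in WT replicate 1, at 62.5 CPM, lay below the other WT libraries, with a gap of 0.861 of the range. WT replicate 1 also had the lowest Arntl and Npas2 of all 8.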

How the results depend on the processing

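With all 8 libraries 1924 genes passed, 12.1% of those tested. On the lists 2 other clock genes, 5 clock outputs, 2 glucocorticoid-responsive genes, 8 immediate-early genes and 1 cofactor passed. No direction that had passed turned under the alternatives run. Under upper quartile scaling or no filter 0 cofactors passed, and under the filter of 1 CPM 1 glucocorticoid-responsive gene. DESeq2 called 2949 genes, 5 other clock genes (Arntl2 higher, and Cry2, Tef, Rora and Bhlhe40 lower) and 5 glucocorticoid-responsive genes. A term for the library number set gave 2892 genes, 4 other clock genes, 1 glucocorticoid-responsive gene and 7 outputs, of which 3 were higher and 4 lower, against 0 higher and 5 lower without the term. Without single libraries, 972 (without Ccna2-KO replicate 3) to 4627 genes (without WT replicate 1) passed, with 1 to 7 other clock genes, 1 to 8 outputs, 0 to 7 glucocorticoid-responsive, 2 to 13 immediate-early and 0 to 3 cofactor genes. The highest of each came without WT replicate 1, and the causes were not tested.

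With the replicate number as a block, 987 genes, 2 outputs, 0 glucocorticoid-responsive, 5 immediate-early and 0 cofactor genes passed. Of the other clock genes 2 passed, Arntl2 as higher and Tef as lower, and Cry2 did not (edgeR adjusted p = 0.0654). The numbers are not known to pair the libraries, since same-numbered deviations correlated between -0.353 and 0.153.

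The difference between the arms, -1.47, lay between -1.82 and -1.23 under all of these. The phase value difference, -1.48, was -1.48 with a prior count of 0.5 and -1.98 with medians over genes. The sign of every member was the same in all alternatives except Clock, from -0.15 to 0.30. Ciart, with 47 counts in 1 library, is the member that depth limits most.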
